A study of Mus musculus with 20 samples.

Results

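Endothelial cell genes were examined here as a set of 38 genes that blood vessel cells express, taken from the 22660 genes with a count in plantaris muscle of old mice. Established endothelial markers such as Pecam1 and Cdh5 stand beside genes that were chosen by measured values. Some members were selected on the D + Q difference in sham muscle, or on the interaction of D + Q with overload, in these same mice. Which members these are is not recorded, so every D + Q value is given as a description. The mean of MOV minus the mean of sham over both treatments is orthogonal to both of those contrasts with 5 mice in each group, and it is the comparison that was tested. The members were chosen with earlier results of these data known, a limit that orthogonality to those contrasts does not remove.

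RNA was sequenced from the plantaris of 20 male C57BL/6J mice with a labelled age of 2 years. In mechanical overload (MOV), parts of the soleus and gastrocnemius, the synergists of the plantaris, were removed, and sham mice had a skin incision only, with both muscles left in place. D + Q is dasatinib, a tyrosine kinase inhibitor, at 5 mg/kg together with quercetin, a plant flavonoid, at 50 mg/kg. The 4 groups crossed surgery (sham or MOV) with gavage of vehicle or D + Q, and each held 5 different mice, numbered 1 to 5 as in the labels, with gavage on days 7 and 10 after surgery and collection on day 14. For sham mice the deposited design text gives day 14 in place of day 10. Each sample was whole muscle, with no sorting of cells.

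The total count was between 17887532 and 26234518 in vehicle sham mice (median 19543043) and between 18535681 and 23468048 in D + Q sham mice (median 22393065). It was between 18260903 and 22092838 in vehicle MOV mice (median 18647949) and between 18879818 and 23076398 in D + Q MOV mice (median 19727134). The values are estimated counts that the authors deposited without normalization. Expression is given as CPM, the counts brought to a common library size after scaling with edgeR's TMM factors. All 38 members reached 10 counts in 5 or more of the 20 mice, as did 15700 genes in all, so each was tested. The lowest count of a member in any mouse was 26, for Sox7.

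Endothelial cells line every vessel, and in skeletal muscle most of them form capillaries that run along the fibers. They are held together by junctions built on VE-cadherin, and they grow and rest under control of VEGF, angiopoietin, apelin and Notch signals, with ETS and SOX factors maintaining their gene program. New capillaries are led by tip cells and accompany growth of muscle fibers. The members were grouped by these roles into junction and adhesion genes (8), receptors for VEGF, angiopoietins and related ligands (8), transcription factors (4), Notch signalling (2), surface glycoproteins and adhesion receptors (8), secreted and matrix proteins (4), and signalling enzymes with a chaperone (4).

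Most endothelial genes had a higher level relative to the library in MOV muscle than in sham muscle. Of the 38 members, 31 were higher in MOV over both treatments at an adjusted p under 0.05, 1 was lower and 6 did not pass. With total counts only as the scaling 36 were higher and 0 lower, where 61.8% of all genes were higher and 12.9% lower. With TMM factors 36.5% of all genes tested were higher and 36.3% lower, so the 81.6% of members that were higher is a larger share than the background, and the 2.63% that were lower is a smaller one. The median log2 fold change of the members was 0.63, against -0.00565 over all genes. In bulk muscle, fewer endothelial cells and less RNA per cell cannot be told apart, and the same holds for more of either. The levels are relative to the library, so a change in the RNA of other cells cannot be told apart from these either. All 10 MOV mice lay above all 10 sham mice for 14 members (36.8%), a separation that 17.6% of all genes showed. No member had all 10 MOV mice below all 10 sham mice (0 of 38, background 16.2%), and the 24 others overlapped.

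The members together took 0.0534% ± 0.00247 of the counts in vehicle sham mice, 0.0654% ± 0.00649 in D + Q sham mice, 0.119% ± 0.0126 in vehicle MOV mice and 0.123% ± 0.01 in D + Q MOV mice (SD, n = 5 each). The lowest MOV mouse, at 0.103%, was above the highest sham mouse, at 0.073%. These shares are of total counts, before scaling. The mean TMM factor was 0.863 and 0.878 in vehicle and D + Q sham mice, and 1.13 and 1.17 in vehicle and D + Q MOV mice. Scaling by total counts only put the median of all genes at 0.395 on the log2 scale, and the share of called genes that were higher in MOV went from 50.2% to 82.7%. The members' median was 1.03 with that scaling, again above the median of all genes. Members called lower by edgeR were 1 with all mice (also 1 at an unadjusted p under 0.05), 1 by DESeq2 and 2 by limma-voom. The edgeR count was 0 without D + Q sham mouse 1, vehicle MOV mouse 3 or D + Q MOV mouse 3, and without D + Q sham mouse 3, vehicle MOV mouse 1, vehicle MOV mouse 2 or D + Q MOV mouse 1 it was 2. The count of members called higher was between 30 and 32 over all 20 fits that left out 1 mouse.

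**Figure D1:**
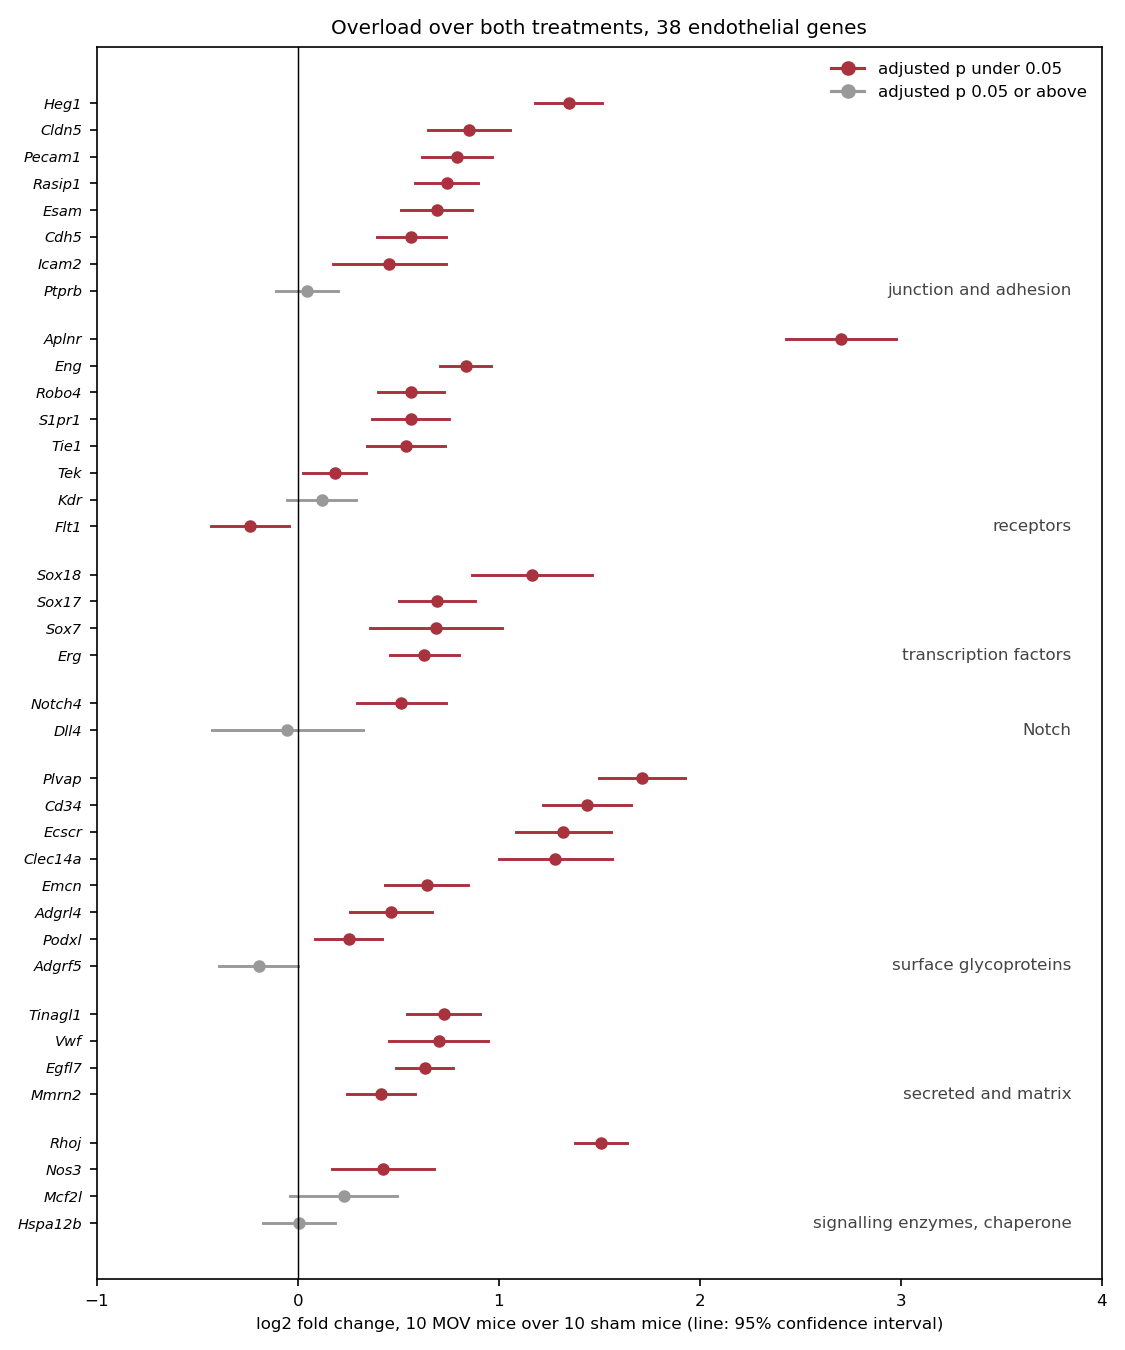
Log2 fold change of the 38 members between MOV and sham muscle over both treatments, by role, with 95% confidence intervals from 10 MOV and 10 sham mice, and with an adjusted p under 0.05 in red. Most points lie to the right of 0, with Aplnr at 2.7, and the lowest is Flt1 at -0.24, which is 0.16 with total counts only, as Adgrf5 and Dll4 also change sign with that scaling.

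Promoter sequence is shown because many members moved together between MOV and sham muscle. RefSeq promoter entries (build GRCm38.p6) existed for 22 of the 38 members, 17 of them with 1 entry. Of the members with 1 entry and a stretch of at least 150 bases upstream of the start that touches no annotated exon, the pair with the highest fold change in MOV (Cd34 and Heg1) and the pair with the lowest (Flt1 and Kdr) are printed 5′ to 3′ on the gene's strand. Capitals mark the letters CGGAAG or AGGAAG, the core that ETS factors such as Erg recognise, on either strand. The stretches are chr1:194938571-194938720 (plus strand), chr16:33684216-33684369 (plus strand), chr5:147726017-147726261 (minus strand) and chr5:75978459-75978705 (minus strand).
Cd34: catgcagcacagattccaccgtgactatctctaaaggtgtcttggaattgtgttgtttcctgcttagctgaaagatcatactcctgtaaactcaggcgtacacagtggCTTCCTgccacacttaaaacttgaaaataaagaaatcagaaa
Heg1: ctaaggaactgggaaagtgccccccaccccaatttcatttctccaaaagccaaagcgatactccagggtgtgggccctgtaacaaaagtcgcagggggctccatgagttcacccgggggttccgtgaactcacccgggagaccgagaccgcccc
Flt1: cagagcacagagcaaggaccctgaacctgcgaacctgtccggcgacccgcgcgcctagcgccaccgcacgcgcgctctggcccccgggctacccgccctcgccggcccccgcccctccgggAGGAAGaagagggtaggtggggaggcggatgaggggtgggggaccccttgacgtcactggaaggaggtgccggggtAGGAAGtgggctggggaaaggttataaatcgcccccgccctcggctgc
Kdr: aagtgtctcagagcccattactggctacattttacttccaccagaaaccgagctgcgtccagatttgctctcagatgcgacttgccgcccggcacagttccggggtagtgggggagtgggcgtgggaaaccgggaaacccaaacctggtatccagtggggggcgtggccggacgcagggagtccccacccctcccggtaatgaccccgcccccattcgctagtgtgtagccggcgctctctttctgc
The printed stretch held 1 match in Cd34, 2 in Flt1 and 0 in Heg1 and Kdr, so each pair had 1 gene with matches. Over the 250 bases upstream of the start, either spelling of the ETS core stood in 20 of the 33 windows of members (60.6%) and in 39.2% of the 32851 windows of all genes. For AACAAT, the letters SOX factors recognise, the numbers were 4 of 33 (12.1%) and 9.42%. For AGATAA, which factors of the Gata family recognise, they were 1 of 33 (3.03%) and 9.99%. Windows of 1 gene can overlap, and a match describes the letters only. Of the members with 1 entry, none had a window of 250 bases free of annotated exons. The windows of Dll4, Rasip1 and Rhoj lay in exons over all 250 bases. These shares therefore include exon sequence.

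Junction and adhesion genes were higher in MOV in 7 of 8 cases, with a median log2 fold change of 0.72 and 8 of 8 with total counts only. Pecam1 encodes CD31, an adhesion protein at contacts between endothelial cells. Its level was 47.9, 31.7, 35.9, 37.6 and 33.6 CPM in vehicle sham mice 1 to 5 and 48.9, 42.8, 31.3, 44.9 and 45.0 CPM in D + Q sham mice 1 to 5. In MOV muscle the level was 75.3, 77.6, 64.6, 75.7 and 59.9 CPM with vehicle and 75.0, 70.6, 61.6, 56.8 and 72.8 CPM with D + Q. Every MOV mouse was above every sham mouse, and vehicle sham mouse 1 and D + Q sham mouse 1 were the highest of the sham mice. Pecam1 rose 1.73-fold (log2 0.79 ± 0.0839 SE, adjusted p = 2.16e-08).

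Cdh5 encodes VE-cadherin, the adhesion protein of the adherens junction. Its level was 50.0, 31.0, 34.7, 39.1 and 38.8 CPM in vehicle sham mice and 53.6, 41.1, 36.7, 41.1 and 47.8 CPM in D + Q sham mice. With overload it was 60.3, 64.1, 61.9, 59.7 and 57.1 CPM in vehicle mice and 72.6, 62.0, 51.0, 54.4 and 68.4 CPM in D + Q mice. Overlap was confined to D + Q MOV mouse 3, which lay below D + Q sham mouse 1. Cdh5 rose 1.48-fold (log2 0.57 ± 0.0821 SE, adjusted p = 2.06e-06). Heg1, a receptor that anchors a junction complex in the endothelium, had the highest fold change of the group (log2 1.35 ± 0.0796 SE). Cldn5, the tight junction claudin of endothelium, had a log2 fold change of 0.85, Rasip1, which vessel lumens need to form, 0.74, Esam 0.69 and Icam2, a ligand of leukocyte integrins, 0.46, and each of these passed. Ptprb, the phosphatase VE-PTP that acts on VE-cadherin and Tie2, did not pass the test (log2 0.0466 ± 0.0739 SE, 95% CI -0.11 to 0.20), and with total counts only it was 0.45 and passed.

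Receptors had the widest range of fold changes among the roles. Of 8, 6 were higher in MOV, 1 was lower and 1 did not pass, and with total counts only 7 were higher and 0 lower. Kdr encodes VEGFR2, through which VEGF-A drives endothelial growth. Its level was 37.6, 31.1, 36.8, 29.0 and 30.7 CPM in vehicle sham mice and 43.5, 33.1, 27.8, 32.4 and 40.6 CPM in D + Q sham mice. In MOV muscle it was 33.0, 32.0, 34.0, 39.8 and 41.3 CPM with vehicle and 43.6, 44.0, 32.5, 33.5 and 38.1 CPM with D + Q. The 4 groups overlapped throughout. The log2 fold change of Kdr was 0.12 ± 0.0829 (SE, 95% CI -0.0529 to 0.29, adjusted p = 0.202), which did not pass. It passed at 0.52 with total counts only and at 0.19 with at least 10 counts required in all 20 mice.

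Flt1 encodes VEGFR1, which binds VEGF-A tightly and signals weakly. The level in vehicle sham mice was 43.3, 43.2, 41.3, 32.6 and 38.1 CPM and in D + Q sham mice 49.0, 39.2, 34.6, 41.1 and 40.4 CPM. It was 41.4, 45.5, 29.2, 25.6 and 35 CPM in vehicle MOV mice and 33.8, 37.8, 28.5, 29.8 and 34.7 CPM in D + Q MOV mice. Mice 3 and 4 of both MOV groups lay below every sham mouse, whereas vehicle MOV mice 1 and 2 lay among the highest sham mice. Flt1 had a fold change of 0.847 (log2 -0.24 ± 0.0933 SE, adjusted p = 0.0262), the only member called lower over both treatments, and its log2 value was 0.16 with total counts only, where it did not pass (adjusted p = 0.077). The adjusted p was 0.0546 without D + Q sham mouse 1, 0.0513 without vehicle MOV mouse 3, 0.0512 without D + Q MOV mouse 3 and 0.0966 with at least 10 counts required in all 20 mice.

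Tek encodes Tie2, the angiopoietin receptor. Its level was 20.6, 13.2, 15.9, 18.8 and 15.3 CPM in vehicle sham mice and 21.7, 18.4, 18.3, 19.4 and 22.1 CPM in D + Q sham mice. It was 21.7, 18, 18.7, 21.2 and 17.7 CPM in vehicle MOV mice and 26.5, 21.6, 21.2, 18.9 and 22.9 CPM in D + Q MOV mice. Only D + Q MOV mice 1 and 5 lay above every sham mouse. Tek rose 1.14-fold (log2 0.18 ± 0.0754 SE, adjusted p = 0.0325). This call was lost in 8 of the 20 fits that left out 1 mouse. The adjusted p was 0.0728, 0.0543 and 0.0598 without vehicle sham mouse 2, 3 or 5, and 0.0574 and 0.0601 without D + Q sham mouse 2 or 3. It was 0.0648 and 0.0543 without vehicle MOV mouse 1 or 4, and 0.0773 without D + Q MOV mouse 1.

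Aplnr, the apelin receptor of growing vessels and veins, had the highest fold change of all members. Its level was 3.59, 1.84, 2.00, 2.45 and 2.53 CPM in vehicle sham mice and 4.20, 3.96, 3.9, 1.80 and 2.90 CPM in D + Q sham mice. It was 23.9, 19.6, 16.7, 19.9 and 17.5 CPM in vehicle MOV mice and 21.9, 14.6, 16, 20.3 and 18.7 CPM in D + Q MOV mice. The lowest MOV mouse was far above the highest sham mouse, and the groups did not overlap. Aplnr rose 6.51-fold (log2 2.7 ± 0.133 SE, adjusted p = 2.92e-14). The gene lies at chr2:84966569-84970267 on GRCm39. Its ligand Apln, which tip cells make, rose as well (log2 fold change 2.90, adjusted p = 2.78e-08). Among the other receptors, the log2 fold change was 0.84 for Eng, a co-receptor for BMP ligands, 0.56 for Robo4, 0.56 for S1pr1, the receptor for sphingosine-1-phosphate, and 0.54 for Tie1, the partner of Tie2, and each passed the test.

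**Figure D2:**
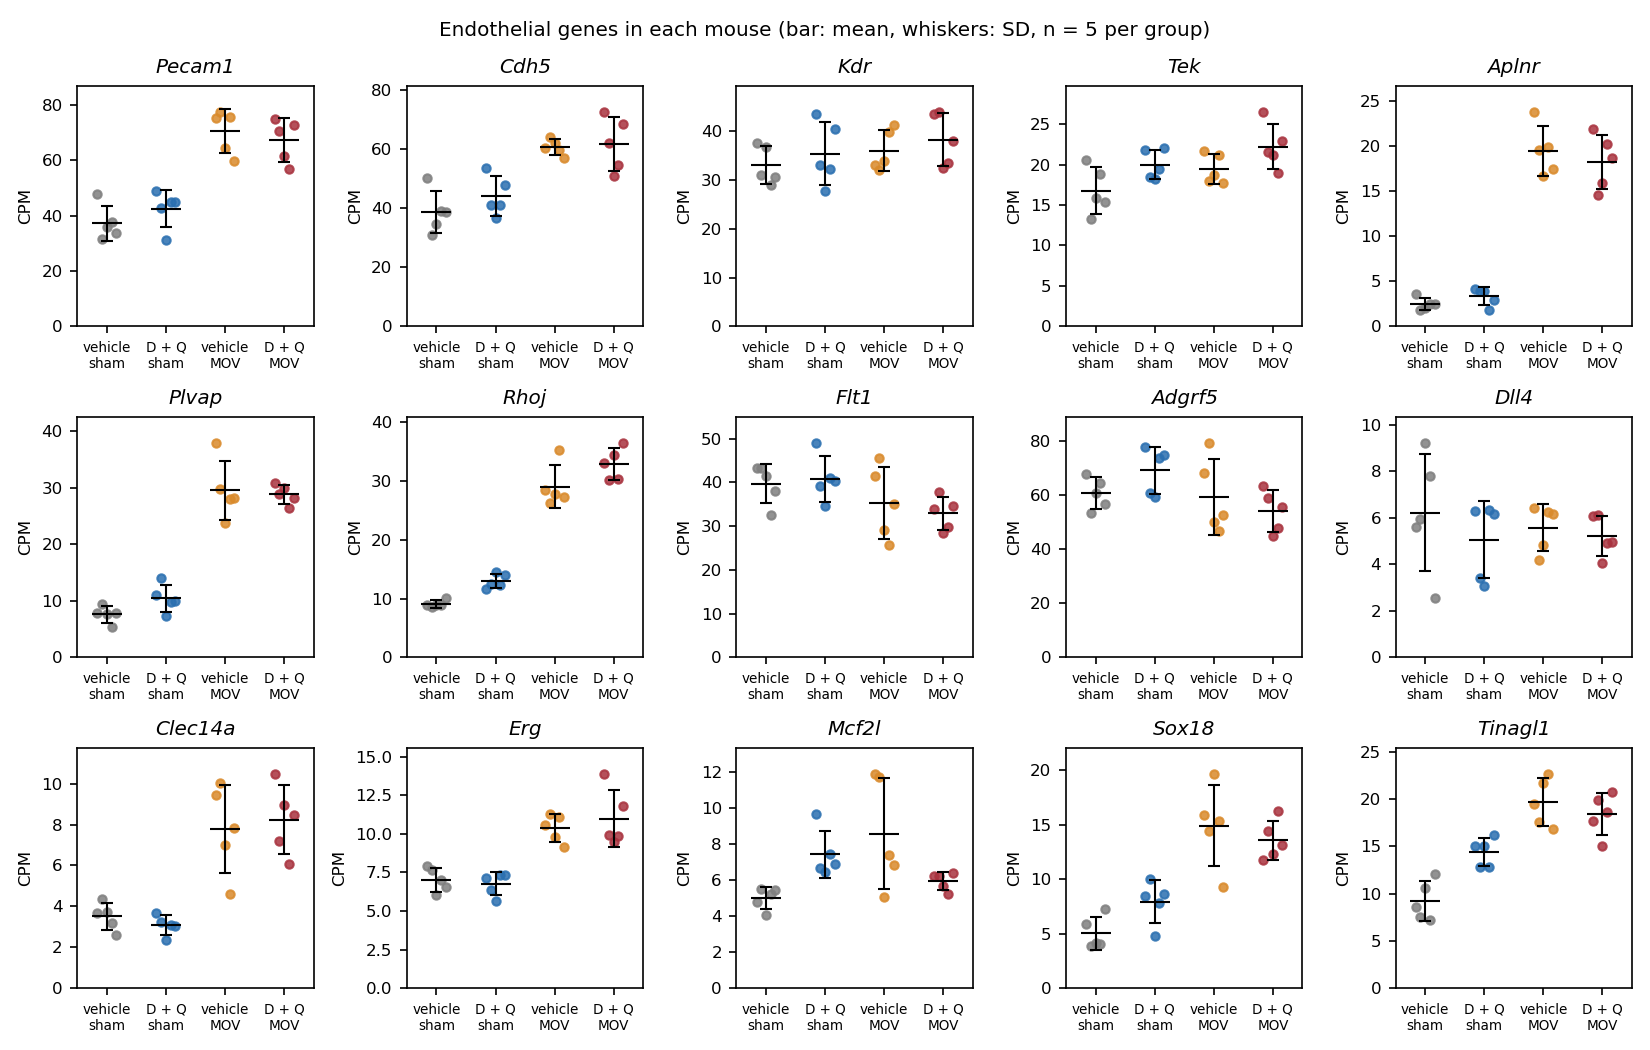
CPM of the 15 members named by rule in each of the 20 mice, 5 per group, with the mean and SD of each group. Aplnr, Plvap and Rhoj in MOV mice lie above every sham mouse, while Kdr, Adgrf5 and Dll4 overlap between all groups and Flt1 is the only member called lower over both treatments, a direction that turns with total counts only, as it does for Adgrf5 and Dll4.

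All 4 transcription factors were higher in MOV, as they were with total counts only. Sox7, Sox17 and Sox18 are the SOXF factors, which act together in vessel formation, and Erg is an ETS factor that maintains endothelial identity. Sox18 was at 5.89, 3.86, 4.13, 4.08 and 7.30 CPM in vehicle sham mice and 8.45, 10.1, 4.78, 7.77 and 8.66 CPM in D + Q sham mice. It was at 15.9, 14.4, 19.7, 15.4 and 9.25 CPM in vehicle MOV mice and 11.7, 14.4, 12.3, 16.2 and 13.1 CPM in D + Q MOV mice. Vehicle MOV mouse 5 lay below D + Q sham mouse 2, and the other MOV mice lay above every sham mouse. Sox18 rose 2.24-fold (log2 1.17 ± 0.144 SE, adjusted p = 2.35e-07). The log2 fold change was 0.69 ± 0.0912 (SE) for Sox17 and 0.69 ± 0.160 (SE) for Sox7. Erg was at 7.92, 7.66, 6.06, 6.99 and 6.54 CPM in vehicle sham mice and 7.14, 6.40, 5.66, 7.34 and 7.34 CPM in D + Q sham mice. In MOV it was at 10.6, 11.3, 9.80, 11.1 and 9.17 CPM with vehicle and 13.9, 9.94, 9.45, 9.87 and 11.8 CPM with D + Q. The MOV mice all lay above the sham mice, with D + Q MOV mouse 1 highest. Erg rose 1.55-fold (log2 0.63 ± 0.0832 SE, adjusted p = 2.54e-07).

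Of the pair of Notch genes, Notch4 passed the test and Dll4 did not, and the difference between them was not tested. Dll4 encodes the Notch ligand that tip cells and arterial cells present to their neighbors. Its level was 5.62, 5.93, 9.22, 7.81 and 2.53 CPM in vehicle sham mice and 6.30, 3.41, 3.07, 6.32 and 6.16 CPM in D + Q sham mice. It was 6.43, 4.20, 4.81, 6.26 and 6.17 CPM in vehicle MOV mice and 6.06, 6.12, 4.06, 4.91 and 4.96 CPM in D + Q MOV mice. Vehicle sham mice held both the lowest value (mouse 5) and the highest (mouse 3) of all 20. The log2 fold change of Dll4 was -0.0520 ± 0.180 (SE, 95% CI -0.43 to 0.32), which did not pass, and it was 0.35 with total counts only. Notch4, a receptor of endothelial cells, rose 1.43-fold (log2 0.51 ± 0.108 SE, adjusted p = 1.44e-04).

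Surface glycoproteins and adhesion receptors were higher in 7 of 8 cases, and in 8 of 8 with total counts only, with the highest median of the 7 roles (log2 0.96). Plvap forms the diaphragms of caveolae and fenestrae. Its level was 7.78, 9.44, 7.67, 5.36 and 7.83 CPM in vehicle sham mice and 11, 14.1, 7.37, 9.86 and 10.0 CPM in D + Q sham mice. It was 38, 29.9, 23.8, 28.0 and 28.3 CPM in vehicle MOV mice and 30.8, 28.9, 29.9, 26.5 and 28.3 CPM in D + Q MOV mice. The groups did not overlap between surgeries, and vehicle MOV mouse 1 was highest. Plvap, at chr8:71948674-71964506 on GRCm39, rose 3.28-fold (log2 1.71 ± 0.102 SE, adjusted p = 9.43e-13).

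Clec14a is a C-type lectin of the endothelial surface. It was at 3.68, 4.38, 3.74, 3.20 and 2.59 CPM in vehicle sham mice and 3.68, 3.23, 2.34, 3.11 and 3.06 CPM in D + Q sham mice. In MOV muscle Clec14a was at 9.44, 10.0, 7.02, 4.60 and 7.82 CPM with vehicle and 10.5, 7.19, 8.98, 6.07 and 8.46 CPM with D + Q. The surgeries did not overlap, although vehicle MOV mouse 4 lay just above vehicle sham mouse 2. Clec14a rose 2.43-fold (log2 1.28 ± 0.136 SE, adjusted p = 6.53e-09). Cd34, a sialomucin that muscle fibroblasts and satellite cells also carry, had a log2 fold change of 1.44 ± 0.105 (SE). For Ecscr it was 1.32, for Emcn, a mucin of capillaries and veins, 0.64, for Adgrl4 0.46 and for Podxl, a sialomucin that lines the lumen, 0.25. Each of these 5 passed. The Podxl value averages 0.58 ± 0.115 (SE) with vehicle and -0.076 ± 0.114 (SE) with D + Q, which are a description.

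Adgrf5 is an adhesion receptor that is abundant in capillary endothelium. The level in vehicle sham mice was 68.0, 53.6, 60.9, 64.6 and 56.8 CPM and in D + Q sham mice 77.9, 60.7, 59.3, 73.8 and 74.9 CPM. It was 68.3, 79.4, 50.0, 46.6 and 52.6 CPM in vehicle MOV mice and 63.5, 59.2, 44.9, 47.9 and 55.8 CPM in D + Q MOV mice. Vehicle MOV mouse 2 was the highest of all 20 mice, while vehicle MOV mice 3, 4 and 5 and D + Q MOV mice 3 and 4 were below every sham mouse. The log2 fold change was -0.19 ± 0.0940 (SE, adjusted p = 0.0696), which did not pass, and with total counts only it was 0.20 and passed as higher (adjusted p = 0.028). It passed as lower without D + Q sham mouse 3 (-0.22, adjusted p = 0.0448), vehicle MOV mouse 1 (-0.22, adjusted p = 0.0452), vehicle MOV mouse 2 (-0.25, adjusted p = 0.00835) or D + Q MOV mouse 1 (-0.23, adjusted p = 0.0401). It also passed as lower with limma-voom (-0.21, adjusted p = 0.0339) and with the mouse number as a block (-0.21, adjusted p = 0.0289).

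Secreted and matrix proteins were higher in 4 of 4 cases, also with total counts only. Tinagl1 is a matricellular protein of vessel walls and other basement membranes. Its level was 8.56, 7.48, 10.6, 7.22 and 12.1 CPM in vehicle sham mice and 15.0, 12.9, 15.0, 12.9 and 16.3 CPM in D + Q sham mice. It was 19.5, 17.6, 21.7, 22.7 and 16.9 CPM in vehicle MOV mice and 17.7, 19.9, 15.0, 18.7 and 20.8 CPM in D + Q MOV mice. D + Q MOV mouse 3 lay just below 3 of the D + Q sham mice, and the other MOV mice lay above every sham mouse. Tinagl1 rose 1.65-fold (log2 0.73 ± 0.0886 SE, adjusted p = 6.81e-08). Vwf, the clotting factor that endothelium stores in Weibel-Palade bodies, had a log2 fold change of 0.70 ± 0.117 (SE). Egfl7, a secreted protein that hosts a microRNA in its gene, had 0.63 ± 0.0687 (SE), with every MOV mouse above every sham mouse. Mmrn2, a matrix protein that binds Clec14a, had 0.41 ± 0.0812 (SE).

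Signalling enzymes and the chaperone gave 2 members that rose and 2 that did not pass, and all 4 were higher with total counts only. Rhoj acts in the migration of endothelial cells. Its level was 8.84, 8.58, 8.96, 8.91 and 10.1 CPM in vehicle sham mice and 11.7, 12.6, 14.4, 12.3 and 14.0 CPM in D + Q sham mice. It was 28.6, 26.3, 27.8, 35.4 and 27.3 CPM in vehicle MOV mice and 33.1, 30.1, 34.5, 30.3 and 36.5 CPM in D + Q MOV mice. All MOV mice lay above all sham mice, and within sham surgery all D + Q mice lay above all vehicle mice. Rhoj, at chr12:75354837-75451107 on GRCm39, rose 2.85-fold (log2 1.51 ± 0.0622 SE) and had the lowest adjusted p of the members (4.99e-16). Nos3, the endothelial nitric oxide synthase, rose 1.34-fold (log2 0.42 ± 0.123 SE, adjusted p = 0.00382).

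Mcf2l encodes a guanine nucleotide exchange factor. Its level was 4.79, 5.53, 4.06, 5.24 and 5.48 CPM in vehicle sham mice and 9.71, 6.70, 6.44, 7.48 and 6.93 CPM in D + Q sham mice. It was 11.9, 11.7, 5.09, 7.40 and 6.84 CPM in vehicle MOV mice and 6.26, 6.27, 5.69, 5.27 and 6.42 CPM in D + Q MOV mice. Vehicle MOV mice 1 and 2 were above all others, every D + Q sham mouse was above every vehicle sham mouse, and every D + Q MOV mouse was below every D + Q sham mouse. The log2 fold change was 0.23 ± 0.129 (SE, adjusted p = 0.114), which did not pass. It passed without vehicle MOV mouse 3 (0.30, adjusted p = 0.0221), with at least 10 counts required in all 20 mice (0.30, adjusted p = 0.0414) and with total counts only (0.63). Hspa12b, an endothelial member of the HSP70 family, had a log2 fold change of 0.00687 ± 0.0864 (SE, 95% CI -0.17 to 0.19) and did not pass, though it did with total counts only (0.41). That value averages differences of opposite sign, 0.35 ± 0.124 (SE) with vehicle and -0.34 ± 0.121 (SE) with D + Q, which are a description since some members were chosen by the interaction.

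Levels of different members were compared per length, as CPM per kb of annotated exon. In vehicle sham mice the highest was Cdh5 (8.84 ± 1.63 CPM per kb, SD, n = 5), followed by Adgrf5 (6.37 ± 0.607) and Podxl (6.05 ± 0.477), which differed by less than their SD. The lowest were Aplnr (0.671 ± 0.185), Icam2 (0.440 ± 0.0988) and Mcf2l (0.378 ± 0.0459). In vehicle MOV mice Cdh5 was again the highest (13.8 ± 0.595 CPM per kb), followed by Cldn5 (9.71 ± 1.64), Cd34 (9.34 ± 2.41) and Sox18 (9.18 ± 2.30), which lay within their SD. Aplnr moved from place 36 of 38 in vehicle sham mice to place 12 in vehicle MOV mice, at 5.28 ± 0.750 CPM per kb. Adgrf5 moved from place 2 to place 8. Exons of 20 of the 38 members overlap another annotated gene, and whether reads were counted by strand is not stated, so the values of those 20 may include reads of a neighbor. The longest such overlap was 1760 bases, in Hspa12b with Adissp on the opposite strand.

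Some mice were high or low in their group for many members. Vehicle sham mouse 1 was the highest of its group for 15 members, and vehicle sham mouse 2 the lowest for 17. D + Q sham mouse 1 was the highest for 21 members and D + Q sham mouse 3 the lowest for 27. Vehicle MOV mouse 1 was the highest for 13 members and the lowest for 0, and vehicle MOV mouse 5 was the lowest for 17. D + Q MOV mouse 5 was the highest for 18 members, and D + Q MOV mice 3 and 4 were the lowest for 16 and 14.

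**Figure D3:**
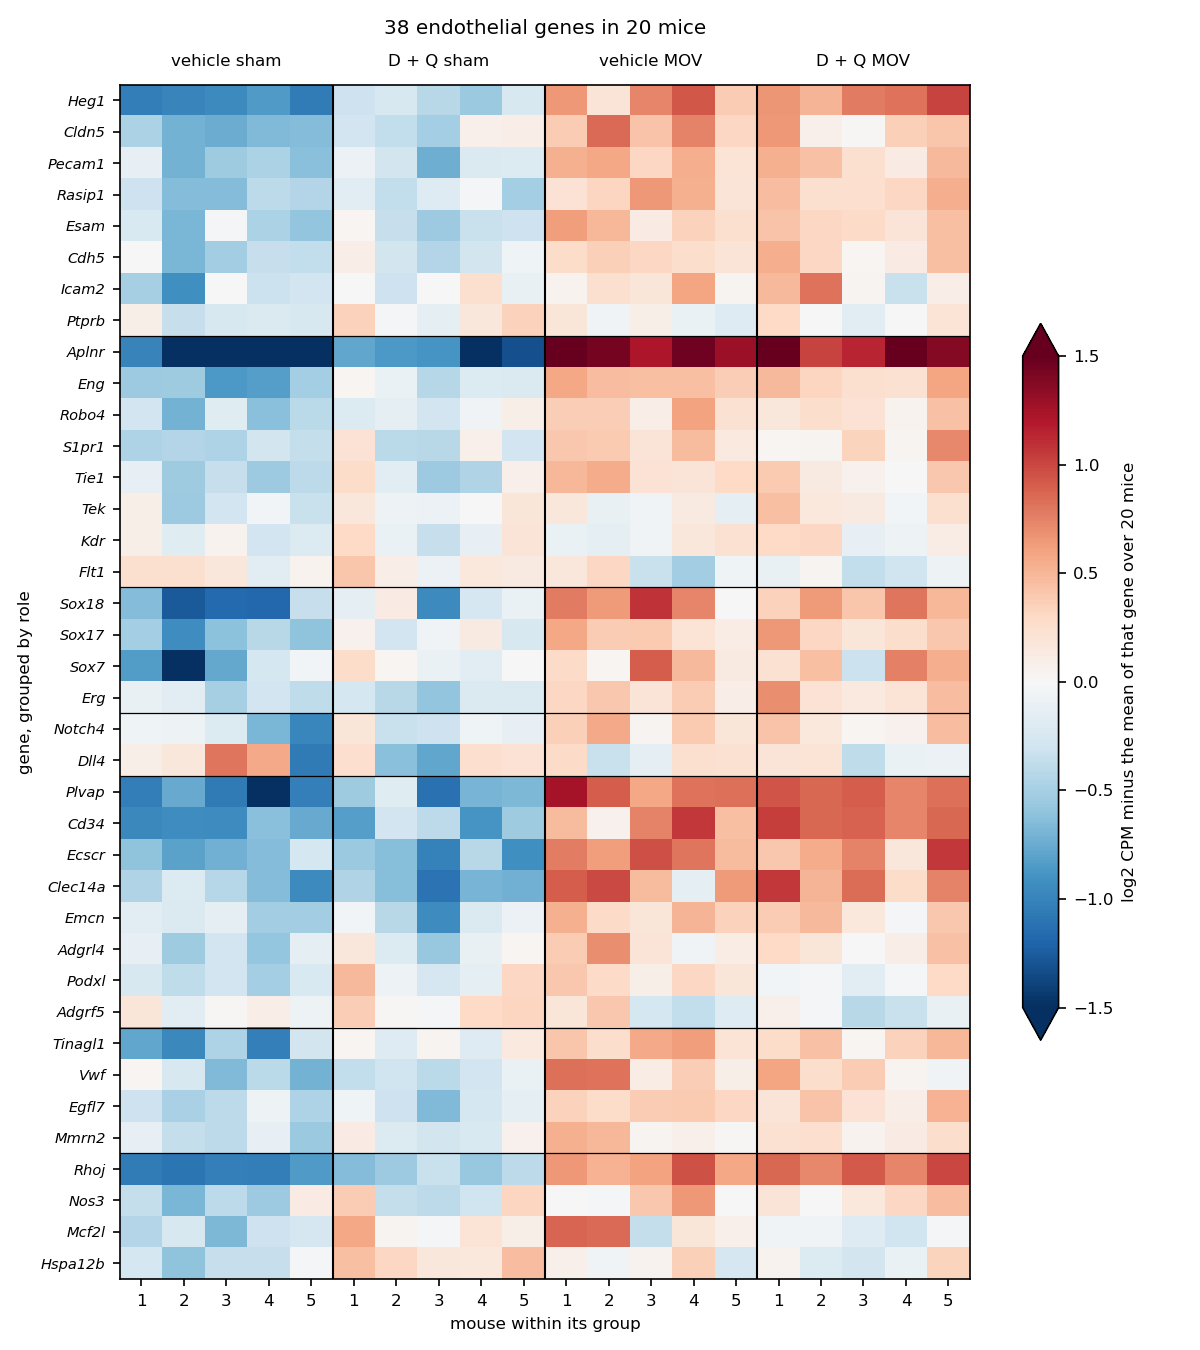
Log2 CPM of each of the 38 members in each of the 20 mice, minus the mean of that gene, on a color range from -1.5 to 1.5. Some values lie beyond that range, among them values of Aplnr in sham and in MOV mice. Sham columns are mostly below the gene's mean and MOV columns above it, and D + Q sham mouse 3 is the lowest of its group for 27 members.

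D + Q against vehicle in sham muscle is one of the contrasts by which members were chosen, so its values are a description. Of the 38 members, 33 were higher with D + Q in sham muscle and 5 lower, with a median log2 difference of 0.26 against 0.0101 over all genes, and the median was 0.28 with total counts only. Genes of several other cell types were mostly above 0 in this contrast as well, so the shift is not particular to the members, and the part of those cells in it was not tested. Higher values with D + Q were found for 11 of 11 fibroblast genes (median 0.51), 6 of 6 tenocyte genes (0.42), 5 of 5 mast cell genes (0.47), 6 of 7 Schwann cell genes (0.32), 8 of 8 lymphatic genes (0.25) and 11 of 12 macrophage genes (0.17). The same count was 6 of 7 for satellite cell and myoblast genes (0.0464), 4 of 7 for proliferation genes (0.0155) and 7 of 11 for myofiber genes (0.0338). For capillary genes it was 7 of 11 (0.0468), for adipocyte genes 2 of 5 (-0.0630) and for erythroid genes 0 of 5 (-0.49). Lists of other cell types with under 5 genes tested are left out here. Among the other vascular lists, tip cell genes gave 11 of 13 (0.318), activation genes 15 of 17 (0.248) and mural genes 10 of 13 (0.203). Notch pathway genes gave 9 of 13 (0.201), the remaining endothelial genes 27 of 35 (0.147) and ligands 8 of 10 (0.145). Arterial genes gave 7 of 11 (0.0720), other endothelial transcription factors 11 of 19 (0.0621) and venous genes 4 of 8 (0.0135). By edgeR 5 members had an adjusted p under 0.05, where 0.121% of all genes did, and no reading is made of that count. Heg1 was at 25.0 ± 1.42 CPM in vehicle sham mice and 38.5 ± 3.47 CPM in D + Q sham mice (SD, n = 5 each). For Eng the levels were 21.6 ± 2.58 and 29.9 ± 3.37 CPM, and for Hspa12b 11.1 ± 1.6 and 17.1 ± 1.71 CPM. The other members in this count were Rhoj and Tinagl1, and all 5 were named here after their values were seen. The log2 difference was 0.63 ± 0.114 for Heg1, 0.47 ± 0.0896 for Eng, 0.62 ± 0.124 for Hspa12b, 0.52 ± 0.0919 for Rhoj and 0.65 ± 0.129 for Tinagl1 (SE). The 5 members with a lower value were Dll4 (-0.29), Clec14a (-0.19), Ecscr (-0.0955), Erg (-0.0570) and Emcn (-0.00638).

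That count of 5 moved with the mice in the fit. With all mice, 16 members had an unadjusted p under 0.05 by edgeR, where 9% of all genes did. DESeq2 and limma-voom also gave 16 members, where 1524 and 1596 of the 15700 genes did. At an adjusted p under 0.05, DESeq2 gave 6 members (96 of all genes) and limma-voom 5 (38 of all genes). The edgeR count was 0 without vehicle sham mouse 1, 2, 3 or 4 or without D + Q sham mouse 5, fits in which between 3 and 5 of all genes were called, against 19 with all mice. It was 1 without D + Q sham mouse 1 (Rhoj), 2 (Rhoj) or 3 (Eng). Without vehicle MOV mouse 1 or 3, or D + Q MOV mouse 2 or 4, it was 3 (Heg1, Eng and Rhoj), and with only the 10 sham mice in the fit it was 3 (Heg1, Rhoj and Hspa12b). With total counts only it was 0, with 1 called among all genes. Over the 20 fits that left out 1 mouse the log2 difference lay between 0.60 and 0.67 for Heg1, 0.41 and 0.52 for Eng, 0.55 and 0.70 for Hspa12b, 0.48 and 0.56 for Rhoj and 0.57 and 0.77 for Tinagl1. The count of members with a lower value was between 3 (without D + Q sham mouse 3) and 6 in these fits, as Flt1, Erg and Emcn changed sign.

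D + Q against vehicle in MOV muscle is a side of the interaction and was also treated as a description. Members were lower with D + Q in 27 cases and higher in 11, with a median log2 difference of -0.0679 against 0.0094 over all genes. With total counts only these medians were -0.0202 and 0.0564. The median was -0.043 without vehicle MOV mouse 1, -0.0442 without vehicle MOV mouse 4, -0.029 without D + Q MOV mouse 3 and -0.0217 without D + Q MOV mouse 4. With 1 mouse left out 14 members changed sign, and between 24 and 30 were lower. Of the other vascular lists, 0 of 11 capillary genes were higher with D + Q (median -0.198) and 6 of 13 mural genes (-0.0055). Tip cell genes gave 11 of 13 (0.143), activation genes 15 of 17 (0.144) and lymphatic genes 7 of 8 (0.213). Notch pathway genes gave 8 of 13 (0.128), other endothelial transcription factors 11 of 19 (0.071) and the remaining endothelial genes 21 of 35 (0.0522). Arterial genes gave 6 of 11 (0.0933), venous genes 4 of 8 (0.0519) and ligands 7 of 10 (0.144). Lists of other cell types went both ways. Higher with D + Q were 11 of 11 fibroblast (median 0.373), 6 of 6 tenocyte (0.444), 11 of 12 macrophage (0.235) and 5 of 5 mast cell genes (0.759). Schwann cell genes gave 5 of 7 (0.121) and adipocyte genes 4 of 5 (0.53). The count was 4 of 11 for myofiber (-0.0408), 2 of 7 for satellite cell and myoblast (-0.191), 1 of 7 for proliferation (-0.216) and 1 of 5 for erythroid genes (-0.236). No member had an adjusted p under 0.05 by edgeR (0 of 38, background 0%), and 3 had an unadjusted p under 0.05, where 10.4% of all genes did, so that count says nothing particular of the members. DESeq2 gave 0 and 3 (14 and 1685 over all genes), and limma-voom gave 0 and 3 (2 and 1854 over all genes). The 3 were Mcf2l (-0.52 ± 0.178 SE), Podxl (-0.24 ± 0.114 SE) and Rhoj (0.18 ± 0.0823 SE). Cd34 had the highest difference (0.28 ± 0.143 SE), with vehicle MOV mice at 102.6, 77.1, 124, 154 and 101 CPM and D + Q MOV mice at 152, 134, 136, 123 and 134 CPM. The D + Q mice lay within the range of the vehicle mice and closer together.

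The interaction compares the D + Q difference in MOV muscle with that in sham muscle, and members were chosen by it as well. It was below 0 for 34 members and above 0 for 4, with a median of -0.31 on the log2 scale against -0.0122 over all genes. With total counts only these medians were -0.29 and 0.0103. With 1 mouse left out the number above 0 was between 3 and 7 (7 without vehicle sham mouse 2), as Kdr, Tek, Cd34 and Ecscr changed sign. The number with an adjusted p under 0.05 was 0 by edgeR (background 0.0127%), with 14 at an unadjusted p under 0.05 (background 5.71%), all below 0. DESeq2 and limma-voom each gave 0 and 14 (over all genes 2 and 959 by DESeq2, and 2 and 962 by limma-voom). The lowest values were those of Mcf2l (-1.09 ± 0.258 SE), Sox18 (-0.78 ± 0.286 SE) and Tinagl1 (-0.74 ± 0.177 SE). The highest were those of Clec14a (0.28 ± 0.272 SE), Dll4 (0.20 ± 0.361 SE) and Erg (0.14 ± 0.166 SE). Every other vascular list also had a median below 0, so that direction is not particular to the members. It was -0.22 for capillary, -0.175 for tip cell, -0.152 for the remaining endothelial and -0.138 for mural genes. Ligands had -0.112, activation genes -0.0967, other endothelial transcription factors -0.0911 and venous genes -0.0767. Arterial genes had -0.0650, Notch pathway genes -0.0321 and lymphatic genes -0.0046. Lists of other cell types had medians on both sides of 0. These were -0.272 for Schwann cell, -0.265 for satellite cell and myoblast, -0.138 for fibroblast and -0.107 for tenocyte genes. Myofiber genes had -0.0663 and proliferation genes -0.0413. Macrophage genes had 0.0954, adipocyte genes 0.245, erythroid genes 0.256 and mast cell genes 0.279.

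Given side by side, the median log2 fold change of the members in MOV against sham was 0.75 with vehicle and 0.42 with D + Q, and 1.14 and 0.83 with total counts only. Both differences contain the interaction, so the counts that follow are a description and no reading is made of them. With vehicle, edgeR called 32 members higher (background 31.9%) and 0 lower (background 30.4%), with 0 lower at an unadjusted p under 0.05, 0 by DESeq2, and 36 and 0 with total counts only (background 54.4% and 10.3%). With D + Q it called 26 higher (background 32.4%) and 3 lower (background 31.8%), and 33 and 0 with total counts only (background 55.1% and 10.2%). The 3 were Flt1 (-0.31 ± 0.132 SE), Adgrf5 (-0.35 ± 0.133 SE) and Hspa12b (-0.34 ± 0.121 SE), named here after their values were seen. DESeq2 called 2 lower, limma-voom 3, and edgeR 0 with at least 10 counts required in all 20 mice. The edgeR count of lower members was 0 without D + Q MOV mouse 3, 1 without D + Q sham mouse 1, 4 or 5 or D + Q MOV mouse 4, and 2 without vehicle sham mouse 2, 3 or 5, D + Q sham mouse 2, vehicle MOV mouse 5 or D + Q MOV mouse 1 or 5. For Tinagl1 the difference was 1.10 ± 0.128 (SE) with vehicle and 0.35 ± 0.123 (SE) with D + Q. Sox18 had 1.55 ± 0.208 and 0.77 ± 0.198, and Mcf2l had 0.77 ± 0.184 and -0.32 ± 0.181. For Aplnr they were 2.95 ± 0.193 and 2.45 ± 0.184, and for Cd34 1.43 ± 0.149 and 1.45 ± 0.147.

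**Figure D4:**
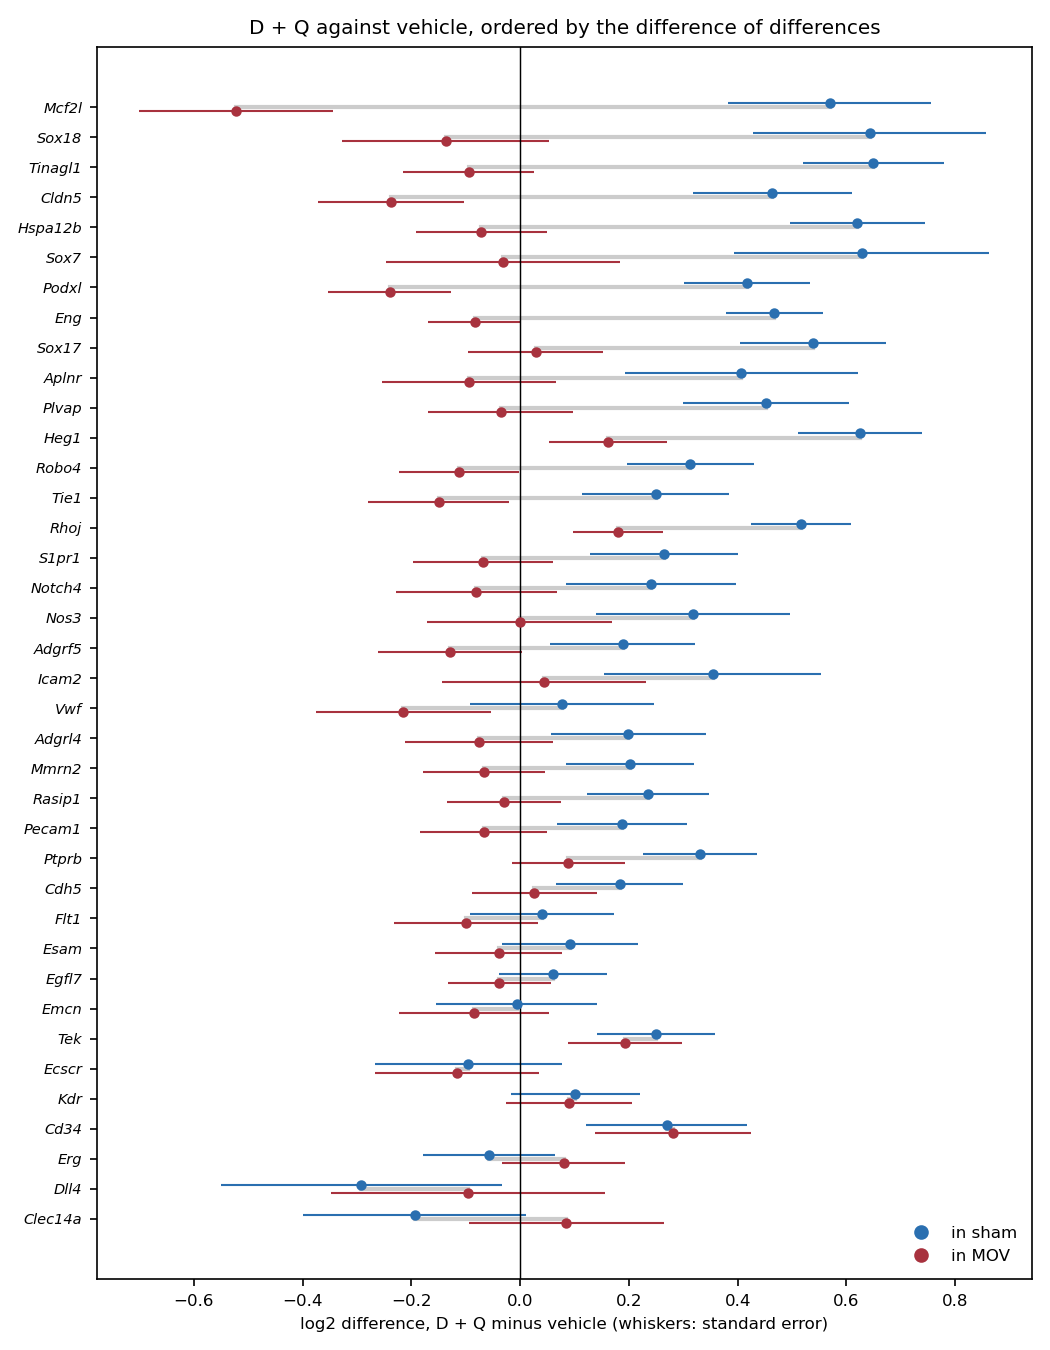
Log2 difference between D + Q and vehicle for each of the 38 members in sham muscle and in MOV muscle, with SE (5 mice per group), ordered by the interaction. In sham muscle 33 members are above 0 and in MOV muscle 11 are, and Mcf2l, with an interaction of -1.09, lies at one end and Clec14a, at 0.28, at the other.

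Other vascular genes were taken from 11 lists, none of which holds a member. Of 148 genes tested, 101 were higher in MOV, 21 lower and 26 did not pass, with a median log2 fold change of 0.71. In these lists and those of other cell types, 12 genes stand in more than 1 list. Whole muscle does not separate cell types, and the part of other cells in the values of the vascular lists was not tested. Tip cell genes were higher in 12 of 13 cases, also with total counts only, led by Apln (2.90), Col4a1 (1.90) and Lama4 (1.74), the last 2 of which encode basement membrane chains. Arterial genes were higher in 7 of 11 (11 of 11 with total counts only), with Mgp at 3.11, Fbln5 at 1.44 and the connexin Gja5 at 1.42. Venous genes were higher in 6 of 8, with Vcan at 3.52, Selp at 2.30 and Vcam1 at 2.08, and Nr2f2, a factor of venous identity, was lower (-0.27), a call that total counts only does not give.

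Capillary genes went both ways. Of 11 tested, 4 were higher and 5 lower, with a median of -0.15, where 36.5% of all genes were higher and 36.3% lower. With total counts only 6 were higher and 2 lower, with a median of 0.25, where 61.8% of all genes were higher and 12.9% lower. These counts lie near the shares of all genes, so no reading is made of them. Rgcc was at 1.68, Timp4 at -1.33 and the lipoprotein lipase gene Lpl, which muscle fibers also express, at -0.84. Lymphatic genes were higher in 8 of 8 with either scaling, with Thy1, also a fibroblast gene, at 2.77, Pdpn at 2.51 and Mmrn1 at 2.09. Mural cell genes were higher in 9 of 13 and lower in 2, and with total counts only in 11 and 1. The contractile genes Tagln (1.80), Acta2 (1.75) and Cnn1 (1.61) led, and Abcc9, a channel subunit that muscle fibers also express, was at -0.80.

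Genes of the Notch pathway were higher in 11 of 13 cases and lower in 1, with 13 of 13 higher under total counts only. Lfng, which modifies Notch receptors, was at 1.90, the target gene Heyl at 1.22 and Notch2 at 0.92. Ligands of the VEGF, Tie and apelin receptors were higher in 5 of 10 and lower in 2, and with total counts only in 8 and 1. Besides Apln, Svep1 was at 2.53 and Pgf at 0.98, while Vegfa (-0.52, adjusted p = 5.07e-07) and Vegfb (-0.86, adjusted p = 5.37e-12) were lower, the Vegfa call being absent with total counts only. Other endothelial transcription factors were higher in 11 of 19 and lower in 5, and with total counts only in 15 and 0. Klf4 (1.75), Klf2 (1.61), both flow-responsive factors, and Foxf1 (1.54) led.

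Genes of endothelial activation and coagulation were higher in 15 of 17 and lower in 0 by edgeR, and by DESeq2 as well (17 and 0 with total counts only), and 0 were lower at an unadjusted p under 0.05. The leukocyte adhesion gene Sele was at 3.5. The remaining endothelial genes were higher in 22 of 35 and lower in 6 (29 and 2 with total counts only). The scavenger receptor genes Stab1 and Stab2 had opposite directions with both scalings, at 2.02 and -1.88, and Eva1b was at 2.04.

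**Figure D5:**
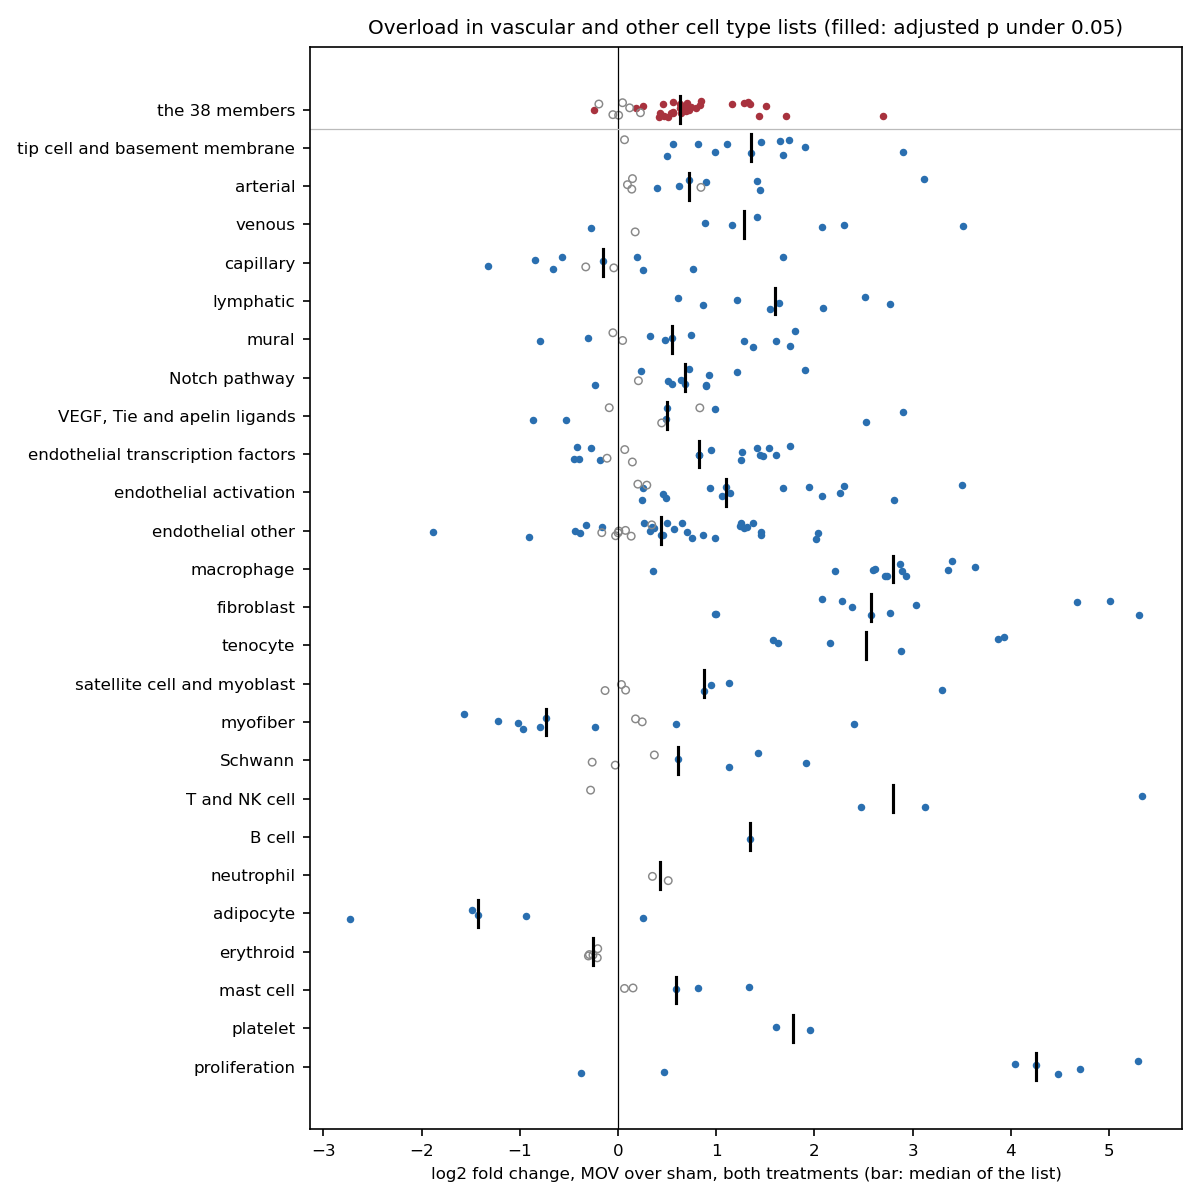
Log2 fold change between MOV and sham muscle over both treatments for each gene (dot) of the member set and of the vascular and other cell lists, with the median of each list as a bar. Macrophage and fibroblast genes have medians of 2.80 and 2.58, the members 0.63 and myofiber genes -0.73, and the capillary median of -0.15 becomes 0.25 with total counts only.

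Genes of other cell types moved with overload too, and their part in the members' differences was not tested. Macrophage genes were higher in 12 of 12 cases (median 2.80), with Lyz2 the most abundant. Their summed level was 67.0, 101, 88.9, 173 and 130.2 CPM in vehicle sham mice and 75.0, 183, 127, 119 and 115 CPM in D + Q sham mice. It was 636, 338, 717, 1011 and 614 CPM in vehicle MOV mice and 779, 739.7, 885, 753 and 795 CPM in D + Q MOV mice. Vehicle MOV mouse 4 was highest and vehicle MOV mouse 2 lowest among MOV mice. Fibroblast genes were higher in 11 of 11 (median 2.58), with Col3a1 the most abundant. Their sum was 603, 545, 544, 796 and 686 CPM in vehicle sham mice and 663, 1418, 929.8, 866 and 913 CPM in D + Q sham mice. It was 9471, 6269, 10560, 12650 and 10410 CPM in vehicle MOV mice and 13210, 11320, 15400, 12330 and 13920 CPM in D + Q MOV mice. The sums of MOV mice lay far above those of sham mice, and D + Q sham mouse 2 was highest among sham mice.

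Myofiber genes were lower in 7 of 11 cases and higher in 2 (6 and 5 with total counts only), with Myh4 the most abundant (-1.57). Their sum was 194100, 169500, 182600, 178700 and 177600 CPM in vehicle sham mice and 184300, 180700, 191100, 196100 and 190200 CPM in D + Q sham mice. It was 116000, 130600, 107200, 95860 and 120400 CPM in vehicle MOV mice and 114100, 116400, 94310, 114200 and 97450 CPM in D + Q MOV mice. All MOV mice were below all sham mice in this sum.

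Tenocyte genes were higher in 6 of 6 cases with either scaling, with Thbs4 the most abundant. Summed, they stood at 95.4, 80.7, 93.7, 108 and 80.9 CPM in vehicle sham mice and 116, 121, 120.0, 112 and 122 CPM in D + Q sham mice. After overload the sum was 704, 644, 797, 1035 and 942 CPM in vehicle MOV mice and 949, 854, 1031, 967 and 1144 CPM in D + Q MOV mice. Every MOV mouse was above every sham mouse. Satellite cell and myoblast genes were higher in 4 of 7 (7 of 7 with total counts only), and the most abundant, Myf6, did not pass (0.0354, adjusted p = 0.656). The sum was 158, 150.2, 147, 162 and 142 CPM in vehicle sham mice and 155, 144, 155, 172 and 146 CPM in D + Q sham mice. With overload the sum was 206, 207, 181, 181 and 238 CPM in vehicle MOV mice and 159.5, 178, 175, 178 and 204 CPM in D + Q MOV mice. The sums of D + Q MOV mice overlapped those of sham mice, and those of vehicle MOV mice lay above. Proliferation genes were higher in 6 of 7 and lower in 1 (6 and 0 with total counts only), with Pcna the most abundant. They summed to 34.5, 36.2, 29.4, 31.8 and 31.0 CPM in vehicle sham mice and 29.3, 35.3, 30.6, 30.1 and 30.2 CPM in D + Q sham mice. After overload they summed to 56.9, 47.5, 61.4, 65.5 and 62.4 CPM in vehicle MOV mice and 51.4, 48.2, 60.8, 53.6 and 64.6 CPM in D + Q MOV mice. All MOV mice lay above all sham mice.

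Schwann cell genes were higher in 4 of 7 (5 of 7 with total counts only), and the most abundant, Mbp, did not pass (-0.26, adjusted p = 0.134). Together they reached 31.8, 15.9, 15.7, 17.4 and 25.3 CPM in vehicle sham mice and 30.9, 28.4, 23.5, 20.4 and 27.7 CPM in D + Q sham mice. Under overload they reached 28.5, 21.8, 16.6, 45.7 and 15.1 CPM in vehicle MOV mice and 21.3, 19.7, 44.2, 18.1 and 22 CPM in D + Q MOV mice. The groups overlapped, with vehicle MOV mouse 4 and D + Q MOV mouse 3 highest. Adipocyte genes were higher in 1 of 5 and lower in 4 (1 and 3 with total counts only), and the most abundant was Fabp4, which endothelium also expresses and which was the 1 higher. The sum over the list was 105, 114, 100.1, 111 and 121 CPM in vehicle sham mice and 125, 114, 102, 117 and 127 CPM in D + Q sham mice. In overloaded muscle it came to 131, 154, 130.1, 136 and 109 CPM in vehicle MOV mice and 141, 124, 113, 111 and 131 CPM in D + Q MOV mice. The groups overlapped. T and NK cell genes were higher in 3 of the 4 tested, of 6 listed, and the most abundant, Cd3e, did not pass (-0.28, adjusted p = 0.285). Summed, they were at 1.75, 1.67, 1.29, 2.45 and 2.77 CPM in vehicle sham mice and 1.68, 2.62, 2.64, 1.51 and 1.78 CPM in D + Q sham mice. The MOV values were 5.02, 3.27, 2.59, 6.79 and 3.80 CPM in vehicle MOV mice and 4.58, 2.03, 4.49, 3.98 and 4.47 CPM in D + Q MOV mice. The defining genes Cd3g and Klrb1c had 0 counts in 5 and 12 of the 20 mice.

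Platelet genes were higher in 2 of the 2 tested, of 5 listed, with Pf4 the most abundant. Their total was 2.12, 4.32, 4.39, 4.95 and 4.83 CPM in vehicle sham mice and 4.83, 5.42, 5.56, 4.96 and 4.38 CPM in D + Q sham mice. With overload it was 15.5, 7.99, 18.7, 25.1 and 14.4 CPM in vehicle MOV mice and 17.6, 18.2, 17.0, 18.1 and 15.5 CPM in D + Q MOV mice. MOV mice were above sham mice, and Gp9 and Gp1bb had 0 counts in 11 and 9 of the 20 mice. Mast cell genes were higher in 3 of 5, and the most abundant, Mcpt4, did not pass (0.15, adjusted p = 0.683). Added up, they gave 4.42, 7.37, 3.93, 10.7 and 5.77 CPM in vehicle sham mice and 6.62, 9.26, 9.13, 6.41 and 9.32 CPM in D + Q sham mice. With overload they gave 6.15, 3.53, 10.2, 14.4 and 4.27 CPM in vehicle MOV mice and 14.4, 15.1, 12.2, 11.8 and 11.8 CPM in D + Q MOV mice. All D + Q MOV mice lay above all sham mice, and vehicle MOV mice overlapped with sham mice. Of the B cell genes, 1 of the 4 listed was tested (Cd79b, higher), and Ms4a1 had 0 counts in 5 of the 20 mice. The 2 neutrophil genes tested, of which S100a9 was the more abundant, and the 5 erythroid genes, led by Hbb-bs, gave 0 calls by edgeR and 0 by DESeq2, with 0 at an unadjusted p under 0.05 and adjusted p-values between 0.373 and 0.582. The erythroid sum ranged from 284.2 to 937.4 CPM in vehicle sham mice and from 208.1 to 1028 CPM in vehicle MOV mice.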

How the data were processed

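RNA from the plantaris of 20 mice was sequenced, 5 in each of 4 groups. According to the submitters' processing notes, reads were aligned with STAR 2.7.8a to GRCm39 and counted in Partek, and the authors deposited estimated counts without normalization, 1 column per mouse. Every one of the 22660 genes sums to at least 10 counts, 20 of them repeat a gene name, and 29.8% of values are not whole, so counts were rounded to whole numbers. No column was left out. Within groups, the ratio of observed to counting variance of a pair of libraries was at least 6.54, so each library counts as 1 mouse. The total count per mouse limits precision for low genes.

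The 15700 genes that reached 10 counts in 5 or more mice were fitted with edgeR 4.0.16 (R 4.3.3) as group means over the 20 mice, with TMM factors and the robust quasi-likelihood test. P-values were adjusted over all tested genes by Benjamini-Hochberg with a threshold of 0.05, and adjusted p-values in the report are from this test unless another tool is named. The fit was tested on simulated data. Tables and figures were made with Python 3.11.15, pandas 2.3.3 and matplotlib 3.10.9. Positions and exon lengths are from GENCODE M39.

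The members and lists were chosen with earlier results of these data known. Values of every mouse are given for Pecam1, Cdh5, Kdr and Tek, for the 3 members highest and the 3 lowest in overload, and for the 3 highest and the 3 lowest in the interaction. From each vascular list up to 3 genes of largest absolute log2 fold change at an adjusted p under 0.05 are named. Other genes that are named were picked with their values in view. Alternatives comprised RLE factors, total counts only, DESeq2 1.42.0, limma-voom (limma 3.58.1) with sample quality weights, no count minimum, at least 10 counts in all 20 mice, the mouse number as a block, only the 10 mice compared, and each mouse left out in turn.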

Additional observations from a re-analysis of the deposited data

Results flagged for a closer look

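Each member's 5 values in each group, 152 sets in all, were examined on the log2 scale for a mouse far from the other 4 of its group. The measure was Dixon's ratio of the gap to the range, with a cut of 0.71. On that scale Rhoj gave both cases found, with ratios of 0.735 and 0.718, and CPM values are printed here. In vehicle sham mouse 5 Rhoj was at 10.1 CPM, with the others between 8.58 and 8.96. In vehicle MOV mouse 4 it was at 35.4 CPM, with the others between 26.3 and 28.6. By chance about 1 in 20 such sets would be found, and 2 of 152 is fewer. Rhoj was called higher in MOV in all 20 fits that left out 1 mouse.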

How the results depend on the processing

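The count of members higher in overload was 31 with all settings except total counts only (36) and at least 10 counts in all 20 mice (33), and between 30 and 32 with 1 mouse left out. The 1 member called lower became 0 with total counts only and with at least 10 counts in all 20 mice, 2 with the replicate block and 2 with limma-voom (Adgrf5 in both), and between 0 and 2 with 1 mouse left out. For D + Q in sham muscle the 5 members called became 0 with total counts only, 3 with only the 10 mice compared, 4 with the block and 6 with DESeq2, and between 0 and 5 with 1 mouse left out. Total counts only moved the median member in overload to 1.03 over both treatments, 1.14 with vehicle and 0.83 with D + Q, where leaving out the scaling factors also moved all genes. The sign of the overload difference changed with total counts only for Flt1 (0.16), Dll4 (0.35) and Adgrf5 (0.20), with at least 10 counts in all 20 mice for Dll4 (0.0183), and with limma-voom for Dll4 (0.0356) and Hspa12b (-0.0291). With 1 mouse left out the difference lay between -0.15 and 0.0375 for Dll4 and between -0.0439 and 0.0455 for Hspa12b. Apart from the scaling, the cause was not tested. Other overload differences of members kept their direction in all settings. D + Q and interaction differences of members moved in all settings by less than the SD of the member's log2 CPM between mice of a group. With 1 mouse left out the sign changed for 3 members in D + Q in sham muscle, 14 in D + Q in MOV muscle and 4 in the interaction, and with the other settings for 1, 6 and 2.

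Correlations between mice of the same number in different groups lay between -0.15 and 0.185. No correlation was taken between mice of different numbers across groups, so these values cannot show whether the numbers pair mice. The main fit had no block, and the mouse number as a block was among the alternatives. Depth limits the lowest members most. Mice were few in each group (5), the members were chosen with D + Q values in view, the counts are estimates with no stated strand, and whole muscle does not separate cell types.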
